A study of Mus musculus with 7 samples.

Results

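Polycomb repressive complex 1 (PRC1) was described here through 9 of its genes, namely Ring1, Rnf2, Cbx2, Cbx6, Cbx7, Cbx8, Bmi1, Pcgf6 and Phc1. Its members were picked by gene symbol, and each of the 9 symbols matched a row among the 55484 rows of the count table. The RNA-seq data covered 4 samples of mouse embryonic fibroblasts (MEFs), connective tissue cells grown from the embryo, and 3 of mouse embryonic stem cells (mESCs), pluripotent cells derived from the early embryo. Both cell types were labelled as having a C57/Bl6 background, with no treatment, time or age given. The libraries were described as already present in the laboratory. The study calls its RNA samples biological replicates but counts fewer MEF samples than the 4 in the table, without naming those it used, so all 4 were kept here. How many cell lines or animals they came from is not given in the sources used here, and p-values measure the spread between these samples. The extraction text in the labels speaks of blood stem cells of young and aged mice in place of MEFs or mESCs, so its bearing on these samples is uncertain. The deposited values were counts of molecules read near the 3′ ends of transcripts, with reads that shared a molecular identifier collapsed. The 3′ design is known only from that same text, whereas the collapsing is also part of the study's methods.

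PRC1 is a chromatin complex that attaches ubiquitin to histone H2A and compacts silenced genes. Each complex is built on a RING protein, RING1 or RNF2, paired with a PCGF protein, and this PCGF partner sets the subtype. The canonical forms hold BMI1 or PCGF2 with a CBX protein, which reads the histone mark H3K27me3, and a PHC protein, which links complexes together. The variant forms hold RYBP or YAF2 in place of the CBX protein, and the PCGF6 form, PRC1.6, silences germline genes in stem cells.

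The libraries held 6528643 to 11441278 counts for MEFs and 7462710 to 8193825 for mESCs. They are named O1 to O4 (MEF) and Y1 to Y3 (mESC) after the count columns, whose letters are not explained. The column names all begin with MEF1 for MEFs and with mESC1 for mESCs, while the sample titles run from MEF1 to MEF4 and mESC1 to mESC3. Whether the libraries of a cell type share a source is thus unknown, and the p-values treat them as separate samples. Levels are given as CPM, counts scaled to a common library size by TMM, and a floor of 3 counts in a library corresponded to 0.288 to 0.477 CPM, covering counting error only. All 10 stem cell markers were higher in mESCs, with MEF levels of 0.398% to 2.0% of the mESC level. All 10 fibroblast markers were lower, with mESC levels of 0.412% to 16.6% of the MEF level. Of 5 blood cell markers, 4 were tested and 1 was higher and 2 lower in mESCs, with summed levels of 22.7 to 58.7 CPM in MEF and 21.2 to 28.3 CPM in mESC libraries. The 5 endothelial markers summed to 21.3 to 35 CPM in MEF and 32.0 to 45.2 CPM in mESC libraries, with 1 of the 3 tested higher in mESCs, and the part of either cell type in the results was not tested. The MEF libraries fell into pairs for some markers. Dcn, a matrix proteoglycan, had 121 and 149 CPM in O1 and O2 and 467 and 522 CPM in O3 and O4, and Lyz2, of macrophages, had 6.62 and 8.69 CPM against 32.7 and 35.8 CPM. With either pair left out, chosen after seeing the data, the members called higher and lower in mESCs were still 3 and 2. None of these 10 blood and endothelial markers was at 0 in all 7 libraries, and Ptprc, the pan-leukocyte marker, had 1 to 17 counts in MEF and 0 to 1 in mESC libraries.

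The PCGF genes Bmi1 and Pcgf6 moved in opposite directions, and the 250 bases before the RefSeq start of each are shown because they hold no annotated exon of any gene. They are given 5′ to 3′ on the gene's strand, with each CpG in capitals. The Bmi1 window lies at chr2:18676768-18677017 on the plus strand, and the Pcgf6 window at chr19:47050907-47051156 on the minus strand (GRCm38.p6).
Bmi1: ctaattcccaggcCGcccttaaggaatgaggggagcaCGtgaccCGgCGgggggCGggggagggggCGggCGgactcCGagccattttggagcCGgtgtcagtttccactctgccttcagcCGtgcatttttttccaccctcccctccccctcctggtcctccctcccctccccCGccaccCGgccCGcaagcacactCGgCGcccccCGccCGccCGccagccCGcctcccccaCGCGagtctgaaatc
Pcgf6: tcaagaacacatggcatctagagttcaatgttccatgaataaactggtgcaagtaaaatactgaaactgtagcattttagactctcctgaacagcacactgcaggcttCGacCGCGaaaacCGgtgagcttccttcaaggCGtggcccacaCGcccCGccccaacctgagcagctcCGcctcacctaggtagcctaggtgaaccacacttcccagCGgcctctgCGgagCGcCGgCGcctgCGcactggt
The Bmi1 window held 21 CpGs and 70.4% G or C, and the Pcgf6 window held 14 CpGs and 56.0%. The median over 32851 RefSeq promoters was 6 CpGs, and 8 of the 9 members, all but Cbx2, matched an entry. The counts of the other 6 were 30 for Ring1, 23 for Cbx7, 22 for Cbx8, 20 for Rnf2, 20 for Cbx6 and 8 for Phc1, so each of the 8 windows lay above the median. The E-box CACGTG, which reads the same on both strands and is bound by MYC and MAX family proteins, occurred in 3 of the 8 windows, against 6.02% of all promoters. This motif holds a CpG, and the share over all promoters was not matched for CpG count, so the 2 figures are not directly comparable. The E-box began 215 bases before the start in Bmi1, 98 in Cbx8 and 26 in Cbx6. Annotated exons of the gene itself covered all 250 bases of the Cbx6 and Phc1 windows, 122 in Cbx7 and 56 in Cbx8. The Cbx6 match thus lies within an annotated exon of Cbx6. The E2F motif GGCGGGAA or TTCCCGCC (1.86% of all promoters) and the octamer ATGCAAAT or ATTTGCAT (1.6%), each searched on both strands, occurred in none of the 8. A match is a description of these letters and not a binding site.

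Of the 9 members, 3 were higher in mESCs (Cbx7, Pcgf6 and Phc1), 2 were lower (Cbx6 and Bmi1) and 4 did not pass the test (Ring1, Rnf2, Cbx2 and Cbx8), at an adjusted p of 0.05 in edgeR's quasi-likelihood test over 16580 genes. Over all tested genes, 22.8% were higher and 25% were lower in mESCs, 47.9% in all, so 5 of 9 is a share close to that background. All 9 passed the filter on low counts, and Cbx7 could pass only through its mESC libraries. Their median log2 fold change was 0.30, against 0.04 over all tested genes. No mESC library entered the MEF range for 3 members higher in mESCs, as for 25.9% of tested genes, and for 3 lower, as for 26.2%. The third lower one was Cbx8, which missed the adjusted p. In bulk libraries, fewer cells with a transcript and less of it per cell cannot be told apart.

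**Figure D1:**
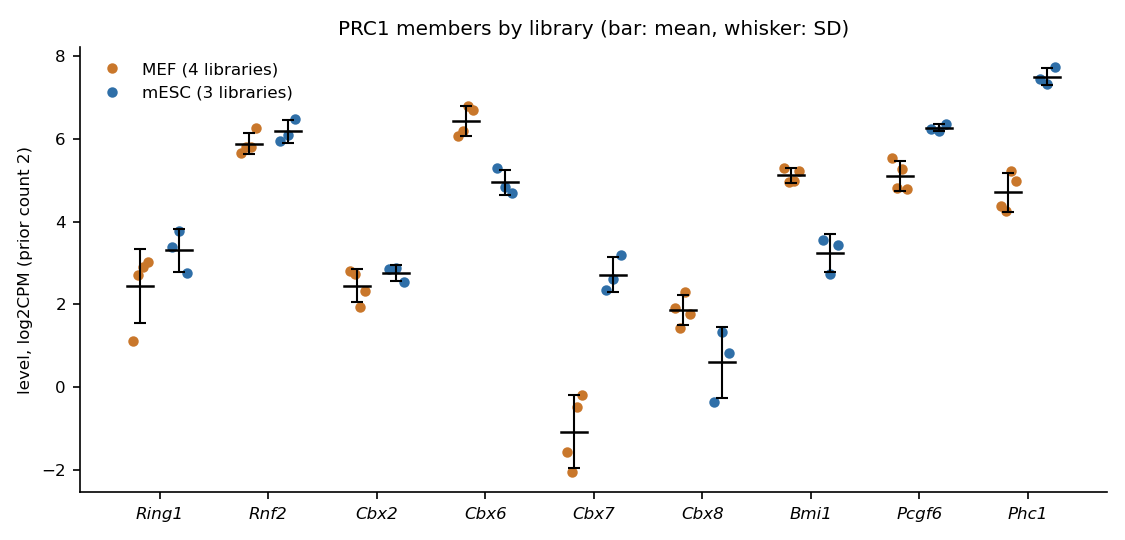
Levels of the 9 members in each library, as log2CPM with a prior count of 2 on the vertical axis, for 4 MEF (orange) and 3 mESC (blue) libraries, with the mean as a bar and the SD as a whisker. The mESC libraries lie above all MEF libraries for Cbx7, Pcgf6 and Phc1 and below them for Cbx6, Cbx8 and Bmi1, while those of Ring1, Rnf2 and Cbx2 overlap.

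The catalytic RING subunits did not pass the test. Rnf2, which encodes the main H2A ubiquitin ligase of stem cells, had 50.6, 55.8, 55.5 and 75.9 CPM in the MEF libraries O1 to O4 and 61.7, 68.4 and 89.4 CPM in the mESC libraries Y1 to Y3. The ranges overlapped, with MEF library O4 above 2 of the 3 mESC libraries. The log2 fold change was 0.30 (SE 0.195, adjusted p = 0.234 in edgeR), but without scaling beyond library size it was 0.58 with an adjusted p of 0.0371, so the call on Rnf2 depended on the scaling. Ring1, its paralog, was the less abundant partner, at 20, 41, 60 and 50 counts in MEFs and 95, 119 and 55 in mESCs. In CPM these were 1.92, 6.25, 7.19 and 7.95 in MEFs and 10.3, 13.5 and 6.49 in mESCs, so mESC library Y3 fell inside the MEF range and MEF library O1 stood below the rest. The log2 fold change of 0.81 had an SE of 0.463 (adjusted p = 0.181 in edgeR). Rnf2 supplied 91.3% ± 3.45 of the RING counts in MEFs (SD, n = 4) and 87.5% ± 5.11 in mESCs (SD, n = 3), and it was above Ring1 per exonic length in all 7 libraries. Rnf2 lies on chr 1 at 151458004 to 151500955 and Ring1 on chr 17 at 34020792 to 34024680 (GRCm38, GENCODE M21). On the opposite strand, Trmt1l overlaps 3.83% of the exonic bases of Rnf2. Its log2 fold change was 0.60 (adjusted p = 0.122 in edgeR), and its part in the Rnf2 counts was not tested.

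In the PCGF family, Bmi1 was lower and Pcgf6 higher in mESCs. Bmi1, the PCGF4 subunit of canonical PRC1 known for repressing the Ink4a-Arf locus, had 39.0, 30.8, 31.3 and 37.2 CPM in MEFs and 11.6, 6.36 and 10.5 CPM in mESCs. Every mESC library lay below every MEF library, and Bmi1 fell by 1.86 on the log2 scale (SE 0.253, adjusted p = 0.000141 in edgeR), a 3.64-fold lower level in mESCs. Pcgf6, the defining subunit of PRC1.6, had 46.2, 27.9, 38.6 and 27.2 CPM in MEFs and 75.8, 73.1 and 82.3 CPM in mESCs. The mESC libraries lay close together and above all MEF libraries, with a log2 fold change of 1.14 (SE 0.207, adjusted p = 0.00104 in edgeR). Tested against a fold change of 2, the adjusted p of Pcgf6 was 0.303, so a rise beyond that fold was not shown.

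Of the other PCGF genes, 1 passed the test. Pcgf3, of the PRC1.3 form, fell by 0.84 on the log2 scale (adjusted p = 0.0137 in edgeR), from 29.8 ± 6.72 CPM in MEFs to 16.7 ± 2.67 CPM in mESCs, and this call was lost without mESC library Y2, without both O1 and O2, and without scaling. Pcgf2, the closest paralog of Bmi1, averaged 29.4 ± 11.6 CPM in MEFs and 29.5 ± 3.36 CPM in mESCs, and Pcgf5 averaged 22.2 ± 2.88 and 23.7 ± 3.69 CPM. Pcgf1, of the PRC1.1 form, was too low to be tested, at 11 pooled counts in MEFs and 19 in mESCs. The PCGF total was 151 ± 27.3 CPM in MEFs and 157 ± 14.2 CPM in mESCs, a difference smaller than the SD within either cell type. Pcgf6 made up 23.1% ± 3.99 of the family's counts in MEFs and 49.1% ± 2.39 in mESCs, and Bmi1 made up 23.3% ± 4.76 and 5.97% ± 1.36. By counts, Bmi1 and Pcgf6 led in MEFs, ahead of Pcgf3 and Pcgf2, while in mESCs Pcgf6 led, followed by Pcgf2, Pcgf5, Pcgf3 and then Bmi1, at rank 5 of 6. Per exonic length, Bmi1 ranked first in MEFs, with ranges that overlapped those of Pcgf2, and Pcgf2 overlapped Pcgf6. In mESCs Pcgf6 ranked first and Pcgf2 next, both apart from their neighbours, and Bmi1 overlapped Pcgf5.

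The Bmi1 gene lies on chr 2 at 18677018 to 18686629 (GRCm38, GENCODE M21), 786 bases beyond the end of Commd3 on the same strand. Commd3, named here after its values were seen, also fell, by 2.24 on the log2 scale (adjusted p = 1.53e-05 in edgeR), from 162 ± 24.0 to 34.2 ± 9.13 CPM. Of the 50-base sequences of Bmi1 transcripts, 16.7% also occur in other genes, chiefly Gm5946, so some Bmi1 reads could have been left out as not uniquely mapped. Pcgf6 lies on chr 19 at 47033617 to 47050906 and shares 0.567% of its 50-base sequences.

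**Figure D2:**
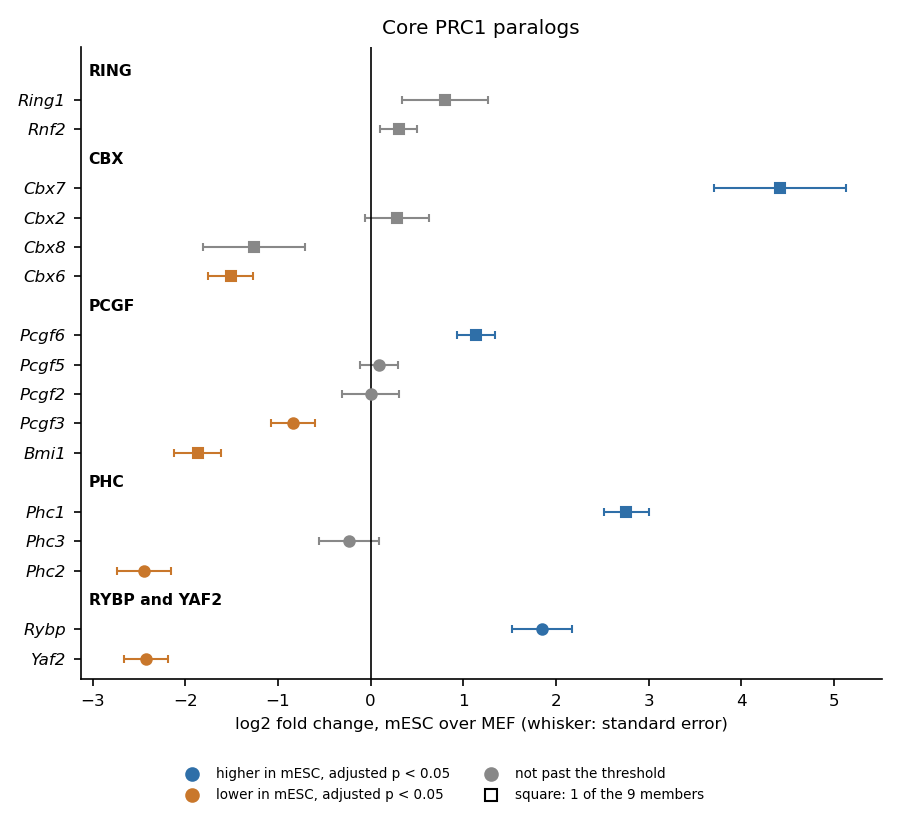
Log2 fold changes of mESC over MEF (horizontal axis, with the standard error as a whisker) for the tested RING, CBX, PCGF and PHC genes described here and Rybp and Yaf2, with squares for the 9 members. Each family except RING holds at least 1 gene that was higher and 1 that was lower in mESCs, such as Cbx7 at 4.42 and Cbx6 at −1.51.

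In the CBX family, whose members carry the chromodomain of canonical PRC1, Cbx6 was lower and Cbx7 higher in mESCs, while Cbx2 and Cbx8 did not pass the test. The 4 CBX members summed to 97.9 ± 21.5 CPM in MEFs and 45.6 ± 5.10 CPM in mESCs, a sum that was not tested and in which Cbx6 was the main source in both cell types. It had 67.0, 72.9, 111 and 104 CPM in MEFs and 39.0, 28.5 and 25.7 CPM in mESCs, with no overlap, and O3 and O4 lay above O1 and O2. It fell by 1.51 on the log2 scale (SE 0.238, adjusted p = 0.000401 in edgeR), to 35% of the MEF level, above the 16.6% that the highest fibroblast marker kept in mESCs. The gene lies on chr 15 at 79823896 to 79834688, and 5.31% of its exonic bases are shared with Npcd on the same strand, a gene with 0 counts in all 7 libraries.

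Cbx7, a CBX protein known for its high level in mouse stem cells, had the largest fitted change among the members. It had 1, 0, 4 and 4 counts in the MEF libraries O1 to O4 and 45, 52 and 75 counts in the mESC libraries. All mESC libraries lay far above all MEF libraries, of which 2 were under the floor of 3 counts. Pooled over libraries, the 9 counts in MEFs and 172 in mESCs gave a 22.8-fold higher level in mESCs, with a 95% interval of 11.7 to 50.7 that covers counting error only. The fitted log2 fold change was 4.42 (SE 0.709, adjusted p = 0.000455 in edgeR) and depends on the prior count. It was 3.50 without O1 and O2 and 6.47 without O3 and O4 (adjusted p = 0.00179 and 0.000565 in edgeR). Its MEF level was 4.63% of its mESC level, above the range of the stem cell markers. Apobec3, named after its values were seen, overlaps 1.54% of the exonic bases of Cbx7 on the opposite strand and was 5.78-fold higher in mESCs (adjusted p = 5.07e-05 in edgeR), and its part in the Cbx7 counts was not tested. Cbx7 lies on chr 15 at 79915807 to 79971119, 81118 bases from Cbx6.

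Cbx2 (119022962 to 119031270) and Cbx8 (119036305 to 119040969) neighbour each other on chr 11, 5034 bases apart. Cbx2, a compacting CBX protein, had 6.72, 6.40, 3.6 and 4.77 CPM in MEFs and 6.94, 7.16 and 5.54 CPM in mESCs, which overlapped (log2 fold change 0.28, SE 0.345, adjusted p = 0.539 in edgeR). Cbx8 had 37, 16, 39 and 20 counts in MEFs and 5, 20 and 13 in mESCs. In CPM the ranges did not overlap but came close, with a lowest MEF value of 2.44 and a highest mESC value of 2.27, and the log2 fold change of −1.26 (SE 0.550, adjusted p = 0.0838 in edgeR) did not pass.

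Of the counts of the 4 CBX members, Cbx6 supplied 90.2% ± 2.89 in MEFs and 67.6% ± 7.43 in mESCs. The share of Cbx7 was 0.272% ± 0.257 in MEFs and 14.7% ± 5.98 in mESCs, with 9.49%, 13.5% and 21.2% in the mESC libraries. Cbx2 held 5.94% ± 2.75 in MEFs and 14.4% ± 1.68 in mESCs, and Cbx8 held 3.57% ± 0.822 and 3.31% ± 2.09. By mean share of the counts the order was Cbx6, Cbx2, Cbx8 and Cbx7 in MEFs and Cbx6, Cbx7, Cbx2 and Cbx8 in mESCs. In MEF library O3, however, Cbx8 was above Cbx2. In mESCs Cbx2 was above Cbx7 in Y1 and Y2, and only in Y3 was Cbx7 the higher. Reads from 3′ ends count a transcript about equally whatever its length, and dividing by exonic length lowered the share of Cbx6, the longest of the 4 genes, to 78.1% in MEFs and 49.6% in mESCs. Per exonic length the order in MEFs was Cbx6, Cbx2, Cbx8 and Cbx7, and the ranges of Cbx2 and Cbx8 overlapped. In mESCs it was Cbx6, Cbx2, Cbx7 and Cbx8, where Cbx2 overlapped Cbx7.

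**Figure D3:**
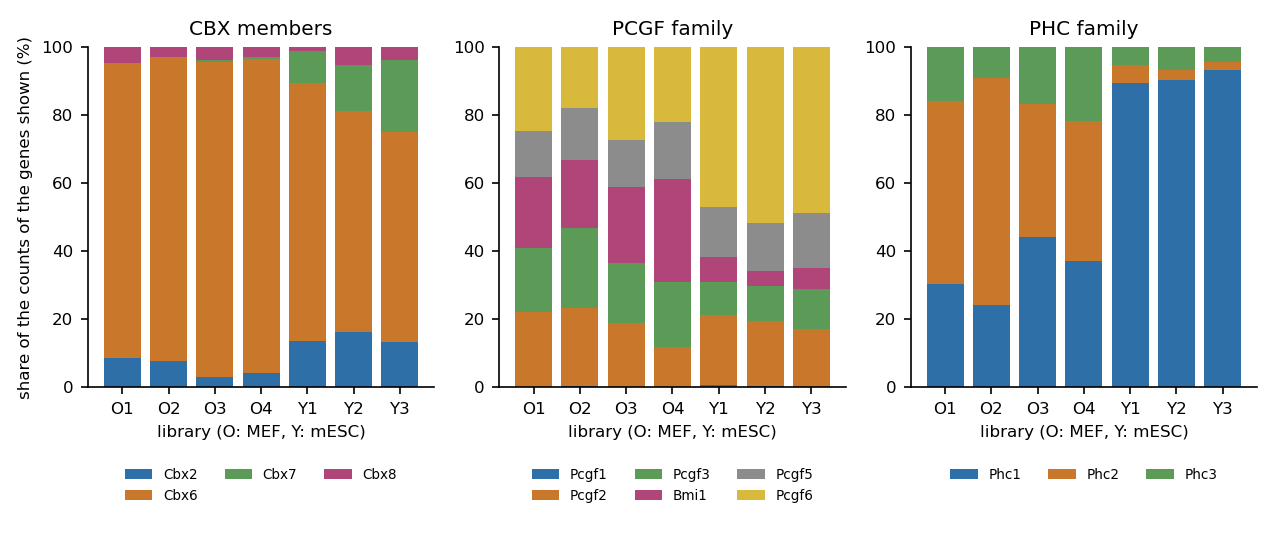
Shares of the counts of the 4 CBX members and of the PCGF and PHC families (vertical axis, percent of the counts of the genes shown) in each library, stacked by gene, with MEF libraries O1 to O4 and mESC libraries Y1 to Y3. Cbx7 appears as a visible share in the mESC libraries, Pcgf6 takes 46.9% to 51.7% of the PCGF counts there, and Phc1 takes 89.5% to 93.1% of the PHC counts.

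The PHC family, whose SAM domains join PRC1 into larger assemblies, held 1 gene that was higher and 1 that was lower. Phc1 had 20.4, 18.9, 37.0 and 31.2 CPM in MEFs and 175, 160 and 212 CPM in mESCs. The lowest mESC library was above the highest MEF library by a wide margin, O3 and O4 lay above O1 and O2, and the log2 fold change was 2.76 (SE 0.245, adjusted p = 6.88e-06 in edgeR), a 6.77-fold higher level in mESCs. Its MEF level was 14.8% of its mESC level, where the stem cell markers had at most 2.0%. Phc2 fell by 2.45 on the log2 scale (adjusted p = 5.25e-05 in edgeR), from 39.0 ± 8.88 to 7.11 ± 2.49 CPM. Phc3 averaged 12.5 ± 4.67 CPM in MEFs and 10.6 ± 0.976 CPM in mESCs (adjusted p = 0.594 in edgeR). The family total was 78.4 ± 7.89 CPM in MEFs and 200 ± 25.8 CPM in mESCs. Phc1 made up 33.9% ± 8.58 of the counts in MEFs, behind Phc2 at 50.2% ± 12.7, and 91.0% ± 1.88 in mESCs. Phc1 lies on chr 6 at 122317731 to 122340561. Per exonic length Phc1 and Phc2 overlapped in MEFs and were far apart in mESCs.

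The balance between paralogs was then measured within each library, as the log2 ratio of the counts of a pair with 0.5 added to each, which needs no scaling between libraries. Of 26 pairs within the families, 20 showed no overlap between MEF and mESC libraries, among them 5 of 6 CBX pairs, 11 of 15 PCGF pairs and all 3 PHC pairs. Over all pairs of tested genes, 54.2% showed no overlap, so most pairs of any genes separated these cell types. Pcgf1 was too low to be tested and is outside that share, but its pairs with Pcgf3 and Bmi1 are among the 20. The pairs of Cbx7, which passed the filter only through its mESC libraries, are also among the 20. Those pairs rest on its 0 to 4 counts in MEFs. An exact permutation test over the libraries, two-sided, cannot give a p under 0.0286 with 4 and 3 libraries, and 16 pairs reached it, with an adjusted p of 0.0464 over the 26 pairs. Of all pairs of tested genes, 42.4% reached the same unadjusted p in this exact permutation test. Pairs share genes, so they are not independent of each other.

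The CBX balance moved towards Cbx7 against the other 3 members. The log2 ratio of Cbx7 to Cbx6 was −8.86, −9.90, −7.69 and −7.18 in the MEF libraries and −2.99, −2.26 and −1.53 in the mESC libraries. Cbx7 was thus below Cbx6 in all 7 libraries, and the difference between cell types was 6.15 (SE 0.740, exact permutation p = 0.0286). Against Cbx8 the ratio of Cbx7 changed sign, from a mean of −3.75 in MEFs to 2.30 in mESCs (difference 6.05, SE 0.830, exact permutation p = 0.0286). Against Cbx2 it went from −4.37 to −0.04 (difference 4.33, SE 1.01, exact permutation p = 0.0286), and in mESCs the pair was near parity. All of these rest on the 0 to 4 counts of Cbx7 in MEFs. Cbx2 gained on Cbx6 by 1.81 (SE 0.410, exact permutation p = 0.0286), whereas Cbx8 to Cbx6 was −4.66 in MEFs and −4.56 in mESCs, with overlapping libraries (difference 0.10, SE 0.768, exact permutation p = 0.914).

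The PCGF balance between Pcgf6 and Bmi1 was 0.24, −0.14, 0.30 and −0.45 in MEFs, near parity, and 2.70, 3.51 and 2.96 in mESCs. The difference of 3.07 (SE 0.296, exact permutation p = 0.0286) is an 8.40-fold change of the ratio. Pcgf2 gained on Bmi1 by 2.0 (SE 0.407, exact permutation p = 0.0286), from −0.33 to 1.67. Pcgf2 to Pcgf5 differed by 0.01 (SE 0.302, exact permutation p = 0.971). Phc1 to Phc2 changed by 5.28 (SE 0.474, exact permutation p = 0.0286), from −0.57 to 4.71, and Ring1 to Rnf2 by 0.61 with overlap (SE 0.598, exact permutation p = 0.429).

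**Figure D4:**
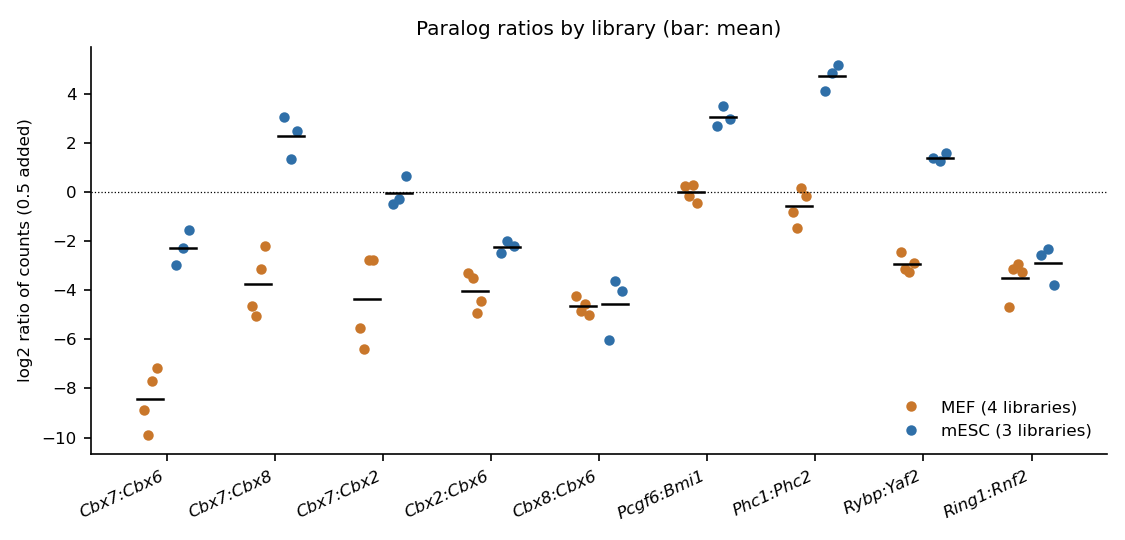
Log2 ratios of counts (vertical axis, 0.5 added to each count) for 9 pairs of paralogs in each of 4 MEF (orange) and 3 mESC (blue) libraries, with the mean as a bar and parity as a dotted line. The ratios of Cbx7 to Cbx6, Cbx8 and Cbx2, of Cbx2 to Cbx6, of Pcgf6 to Bmi1, of Phc1 to Phc2 and of Rybp to Yaf2 separate the cell types, while Cbx8 to Cbx6 and Ring1 to Rnf2 overlap.

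With the 6 other paralogs described here, the core list of PRC1 held 15 genes, of which 14 were tested. In mESCs 3 were higher and 4 lower, shares close to the 22.8% and 25% of all tested genes. The 3 higher ones were the members Cbx7, Pcgf6 and Phc1, and Pcgf3 and Phc2 joined Cbx6 and Bmi1 among the lower ones. Their median log2 fold change was 0.05, against 0.04 over all tested genes. The partners that replace CBX proteins in variant PRC1 moved apart. Rybp rose by 1.85 on the log2 scale (adjusted p = 0.000736 in edgeR), from 7.37 ± 3.06 to 26.9 ± 5.76 CPM, and Yaf2 fell by 2.42 (adjusted p = 1.44e-05 in edgeR), from 54.5 ± 8.52 to 10.2 ± 2.77 CPM. Their log2 ratio changed by 4.35 (SE 0.200, exact permutation p = 0.0286), and Rybp went from 11.6% ± 2.71 to 72.6% ± 2.09 of the pair's counts. Per exonic length its share was 4.96% in MEFs and 51.2% in mESCs. There it was above Yaf2 in 2 of 3 mESC libraries, with overlapping ranges, so which of the pair leads in mESCs depends on the unit.

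Among 25 accessory subunits, Rybp and Yaf2 included, 10 were higher and 6 lower in mESCs, beside the 22.8% and 25% of all tested genes, with a median log2 fold change of −0.09. In PRC1.6, the complex of Pcgf6, 4 of 9 were higher and 3 lower. L3mbtl2, an MBT domain subunit, was at 1.79 on the log2 scale, Mga, its large DNA-binding scaffold, at 1.63 and Wdr5, a WD40 protein shared with MLL complexes, at 1.25 (adjusted p = 0.00013, 8.07e-06 and 0.000131 in edgeR). The remaining higher gene, the deacetylase Hdac1, was at 0.76 (adjusted p = 0.00106 in edgeR). E2f6, its E2F partner, fell by 1.37, Cbx3, the HP1 protein of PRC1.6, by 0.73 and Hdac2, also a deacetylase, by 0.52 (adjusted p = 0.00364, 0.0126 and 0.0137 in edgeR). The PRC1.6 subunits were thus called in both directions, and without scaling beyond library size Cbx3 and Hdac2 no longer passed. In PRC1.1, 2 of 5 were higher, Usp7, a deubiquitinase, at 1.87 (adjusted p = 3.47e-06 in edgeR) and Kdm2b, which binds unmethylated CpG islands, at 0.74 (adjusted p = 0.0323 in edgeR). The call on Kdm2b was lost without MEF library O1, O3 or O4 or mESC library Y2 or Y3.

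In PRC1.3 and PRC1.5, 3 of 6 were higher and 1 was lower, beside 22.8% and 25% of all tested genes. Fbrsl1, an AUTS2 relative, was at 1.97 on the log2 scale and the casein kinase subunits Csnk2a1 and Csnk2a2 at 1.11 and 0.50 (adjusted p = 0.000385, 0.000133 and 0.0234 in edgeR). Fbrs fell by 1.34 (adjusted p = 0.0301 in edgeR). The call on Csnk2a2 was lost without MEF library O2 or mESC library Y1 or Y2, and that on Fbrs without O3, O4, Y2 or Y3. Of the 3 SCM proteins, which bind PHC proteins, Scmh1 fell by 1.12 (adjusted p = 0.0228 in edgeR), a call lost without O1, Y1 or Y3, and neither Fbrs nor Scmh1 passed without scaling. Of 7 enzymes and cofactors that remove ubiquitin from H2A, 2 were higher and 2 lower, beside 22.8% and 25% of all tested genes. Asxl1, a cofactor of BAP1, was at 1.69 and Mysm1 at 0.52, while Asxl3 fell by 2.98 and Usp16 by 0.82 (adjusted p = 6.11e-05, 0.0273, 0.000335 and 0.0043 in edgeR). Mysm1 lost its call without O2, O3, Y2 or Y3, which left 1 of the 7 higher.

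**Figure D5:**
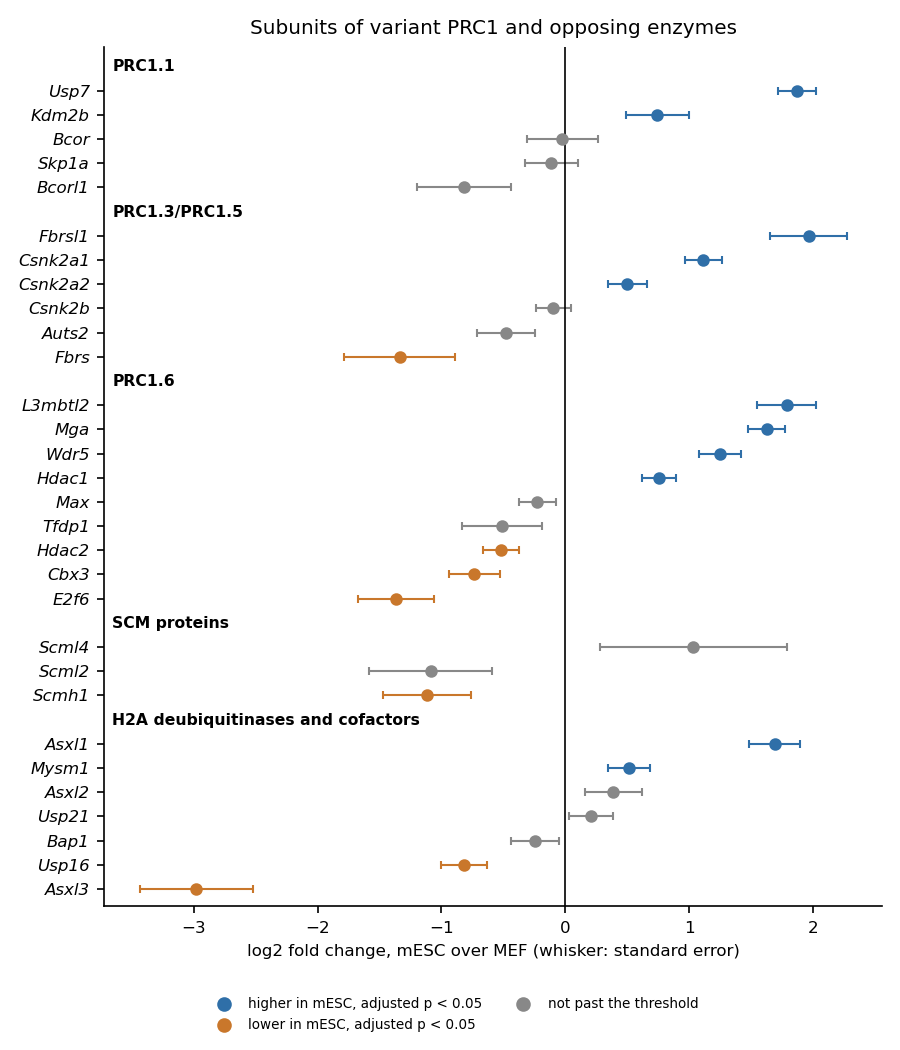
Log2 fold changes of mESC over MEF (horizontal axis, with the standard error as a whisker) for subunits of variant PRC1, SCM proteins and H2A deubiquitinases, grouped by complex and coloured by whether they passed the test. Higher and lower genes stand side by side within PRC1.6, from L3mbtl2 at 1.79 to E2f6 at −1.37.

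Genes that PRC1 is known to silence were measured as well. Cdkn2b, a cell cycle inhibitor of the locus known as a BMI1 target, fell by 3.94 on the log2 scale (adjusted p = 2.03e-06 in edgeR), from 113 ± 34.6 CPM in MEFs to 7.35 ± 1.55 CPM in mESCs. Cdkn2a, which encodes p16 and Arf, had 8.74 ± 2.23 CPM in MEFs and 5.80 ± 0.621 CPM in mESCs and did not pass (log2 fold change −0.59, adjusted p = 0.152 in edgeR). Of 8 germline genes known as PRC1.6 targets, 6 were tested and 5 were higher in mESCs, beside 22.8% of all tested genes. This tally carries little weight, because Dazl, Mael, Hormad1 and Stk31 had 0 to 5 counts in each MEF library and passed the filter on low counts only through the mESC libraries, and the 2 genes not tested were low in both cell types. Dazl, a germ cell RNA-binding protein, had 8 pooled counts in MEFs and 714 in mESCs, a 106-fold higher level with a 95% counting interval of 53.7 to 247.6. Mael, a piRNA pathway protein, had 2 and 211 pooled counts (interval 34.4 to 1046), and Hormad1, a meiotic chromosome protein, had 5 and 193 (interval 19.4 to 143). Stk31 and Ddx4 were at 4.69 and 2.54 on the log2 scale (adjusted p = 0.000112 and 0.000165 in edgeR). Tdrkh, the tested germline gene that did not pass, was at −0.65 (adjusted p = 0.328 in edgeR). Of the HP1 chromodomain genes that share the CBX name but not PRC1's canonical form, Cbx1 was at 0.60 (adjusted p = 0.0167 in edgeR), a call lost without Y2. Cbx3 fell as given above, and Cbx5 did not pass.

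Cbx7 was also compared with all tested genes by its profile over the 7 libraries, as the Euclidean distance between log2CPM values centred on each gene's mean. The nearest were Ptpn6 at a distance of 0.639, AI467606 at 0.776 and Gm7240 at 0.885. Their log2 fold changes were 3.76, 4.41 and 3.68, close to that of Cbx7, which the way they were chosen fixes, and the profile of Cbx7 rests on 0 to 4 counts in MEFs.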

How the data were processed

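The authors trimmed and split the reads by index, then aligned these to mm10 by STAR (version 2.4.2a in the submitters' processing notes, another version in the study's methods), merged reads of the same molecular identifier in Je and ran featureCounts on those mapping uniquely. They deposited whole-number counts per gene without normalization. The annotation release and strand setting are not given in the sources used here, and the number of unused per-sample columns was 0.

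Counts were tested with edgeR 4.0.16 (limma 3.58.1, R 4.3.3), using filterByExpr, TMM scaling and quasi-likelihood fits on the 7 libraries with cell type as the only term, with Benjamini-Hochberg adjustment over all tested genes. log2CPM used a prior count of 2, and ratios a pseudocount of 0.5. Values after ± are SD over 4 MEF or 3 mESC libraries. The code was tested on simulated data. Coordinates, exonic lengths and shared sequences are from GENCODE M21 on GRCm38, and promoters from RefSeq on GRCm38.p6.

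The members and gene lists were chosen with earlier results of these data known. The results of 1 gene are not reported here, and family totals, shares and pair counts leave it out. The genes named are the members, the other core paralogs, Rybp, Yaf2, Cdkn2a and Cdkn2b. To these were added up to 3 genes with the largest and 3 with the smallest fold change past the threshold in each other list. The 3 nearest profiles of the member that changed most were named too. Hdac1, Stk31, Ddx4, Tdrkh, Cbx5 and the cell type markers Dcn, Lyz2 and Ptprc were named outside this rule. Genes named only for their position were chosen after their values were seen. Alternatives were DESeq2 1.42.0, its size factors in edgeR, no scaling, no filter and a stricter filter, a test against a fold change of 2, other prior counts and pseudocounts, pooled counts, division by exonic length, leaving out each library, and leaving out MEF libraries by pairs.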

Additional observations from a re-analysis of the deposited data

Results flagged for a closer look

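Of 39 genes examined for a single MEF library that stood apart from the other 3, which cannot find libraries that stand apart in pairs, 2 did so, where chance gives about 1.95. For L3mbtl2 the lowest MEF library was at 3.07 log2CPM, and its gap to the next was large against the range of the 4 libraries. For Mael the highest MEF library was at −1.21 log2CPM, which is 2 counts against 0 in the other 3 libraries and lies under the floor of 3 counts.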

How the results depend on the processing

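No paired analysis was possible because the count columns are not tied to single samples by a number that the labels explain. Among the 9 members the counts of 3 higher and 2 lower held in all alternatives except no scaling beyond library size (4 higher, with Rnf2) and the test against a fold change of 2 (2 higher, without Pcgf6). Without scaling, the median log2 fold change of all tested genes was 0.32 in place of 0.04, and 60.8% of calls were higher in mESCs in place of 47.7%, with 2 accessory subunits lower and 4 deubiquitinase genes higher. Over the whole table, 1714 genes were higher and 2277 lower when the fold change had to exceed 2, with 5 accessory subunits higher and 1 lower, and 1 deubiquitinase gene higher and 1 lower. With no filter 1 deubiquitinase gene was higher, and leaving out each library in turn gave 1 to 2. Pcgf2, which passed the threshold in no alternative, had a log2 fold change of 0.02 in DESeq2 (0.0209) and with its size factors (0.0201). It was at 0.29 without scaling and −0.23 to 0.20 when each library was left out. Pcgf5 ran from −0.028 to 0.20 when each library was left out, and Phc3 was at 0.0364 without scaling. Per exonic length the shares in MEFs and mESCs were 12.6% and 26.1% for Cbx2, 78.1% and 49.6% for Cbx6, 8.89% and 6.81% for Cbx8, 30.6% and 7.83% for Bmi1, and 44.4% and 95.4% for Phc1, so each kept its direction. All 54 alternative values of the paralog ratios moved by less than 1 SD. No p was recomputed for them, since with a library left out the exact permutation test cannot go under 0.05. Leaving out both O1 and O2, or both O3 and O4, was added after seeing the data. Without O1 and O2 Pcgf2 was at 0.48. Without O3 and O4 Pcgf2 was at −0.41, Cbx2 at −0.0332, Pcgf5 at −0.0864 and Phc3 at 0.21. None of these values was past the threshold. Of the accessory genes named, Hdac1 aside, Scmh1, Kdm2b and Csnk2a2 lost their calls in both cases. Cbx3 and Mysm1 lost theirs without O1 and O2, and Fbrs and Cbx1 without O3 and O4. Of 585 alternative fold changes, 517 kept their direction and call, 54 lost the call, 1 gained it and 13 reversed. The cause was not tested. Cbx7 rests on 0 to 4 counts in single MEF libraries, and Pcgf1 was too low to be tested.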
